A study of Mus musculus with 31 samples.

Results

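From the 15034 genes in the RNA-seq table, 10 mRNAs that stood among the largest increases in CLIPΔ mouse embryonic stem cells (mESCs) were examined. They are *Bhmt*, *Aqp3*, *Tnni1*, *Smtnl1*, *Aurkc*, *Pramel6*, *Oas1f*, *Cd4*, *Ly6a*, and *Srarp*. They were chosen by name for their difference between CLIPΔ and WT mESCs, so that difference is a description and carries no test. The question asked of them is whether the rise was also present when *Ago2* was deleted.

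All lines derive from ES-E14TG2a mESCs, a widely used feeder-independent line, and were grown in 2i+lif medium for RNA-seq. The mESCs called WT carry a FLAG-tag on both alleles of *Trim71*, and the edited lines were grown out of single cells after CRISPR/Cas9 editing, so each edited line is a clone. CLIPΔ mESCs lack the Trim71-binding region of the *Ago2* 3'UTR on both alleles, and 2 independent clones were made. *Ago2* KO mESCs were made with a pair of guides to the *Ago2* coding region, and *Ago2* KO/CLIPΔ mESCs carry both changes. WT and CLIPΔ mESCs had 2 RNA-seq libraries each, and both *Ago2*-null genotypes had 4 each, labelled as biological replicates. The paper shows RNA-seq reads over the *Ago2* 3'UTR from WT and from both CLIPΔ clones. Which library came from which clone, and whether replicates were separate cultures, was not given. The p-values therefore measure the spread between these libraries, which may be technical. The columns read as CLIPΔ carry a code and were assigned because CLIPΔ was the only genotype left.

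Argonaute proteins hold miRNAs and repress the mRNAs that these pair with, and Ago2 is the member that can also cut its target. Trim71 is an RNA-binding protein of stem cells and early embryos that binds mRNAs, that of *Ago2* among them. The 10 genes belong to no single pathway. They encode a methyl-transfer enzyme, a water and glycerol channel, proteins of the contractile apparatus, a meiotic kinase, a PRAME-family protein of pluripotent cells, an interferon-related enzyme family member, surface proteins of blood cells, and a regulator of steroid receptors.

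*Ago2* mRNA was at 28.2 and 21.6 TPM (transcripts scaled by length and library size) in WT and at 27.3 and 20.3 TPM in CLIPΔ mESCs. It was between 1.67 and 2.29 TPM in the 4 *Ago2* KO libraries and between 1.51 and 2.87 TPM in the 4 *Ago2* KO/CLIPΔ libraries. The level of *Ago2* mRNA thus set the 8 libraries labelled with the *Ago2* deletion apart, and it does not tell WT from CLIPΔ. Of the 14 markers of pluripotent stem cells, 13 were in the table, with a summed level from 11438 to 14669 TPM per library. The sum over all genes was between 998656 and 999501 TPM per library, and the sequencing depth is unknown because TPM values keep none. Within the *Ago2*-null libraries, replicates 1 and 2 of a genotype were more alike than either was to replicates 3 and 4. The correlation across genes was 0.9974 to 0.9986 within these pairs of libraries and 0.989 to 0.9949 between them. The labels do not say what sets the pairs apart, so the results below are also given within each pair.

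With Ago2 present, all 10 mRNAs were higher in CLIPΔ than in WT mESCs, by ratios of mean TPM from 2.86 for *Aqp3* to 10.4 for *Cd4*. Their differences of mean log2(TPM + 1) ran from 1.51 for *Aqp3* to 2.47 for *Srarp*, with a median of 2.14, against a median of -0.05 over the 11642 genes whose mean over these 4 libraries reached 1 TPM. Adding 1 TPM before taking the log understates the change of genes with low levels. The 10 were not the 10 highest ranks. *Srarp* was ranked 4, *Tnni1* 5, *Bhmt* 6, *Aurkc* 8, *Pramel6* 11, *Cd4* 12, *Oas1f* 14, *Smtnl1* 16, *Ly6a* 25, and *Aqp3* 40. *Dppa3* had the largest difference, 2.89. Next to *Aqp3*, *Kiss1* just above it was at 1.53 and *Rapsn* just below it was at 1.49. For each of the 10, both CLIPΔ libraries were higher than the other 10 libraries, which held for 6.17% of all genes and follows in part from how the genes were chosen.

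**Figure D1:**
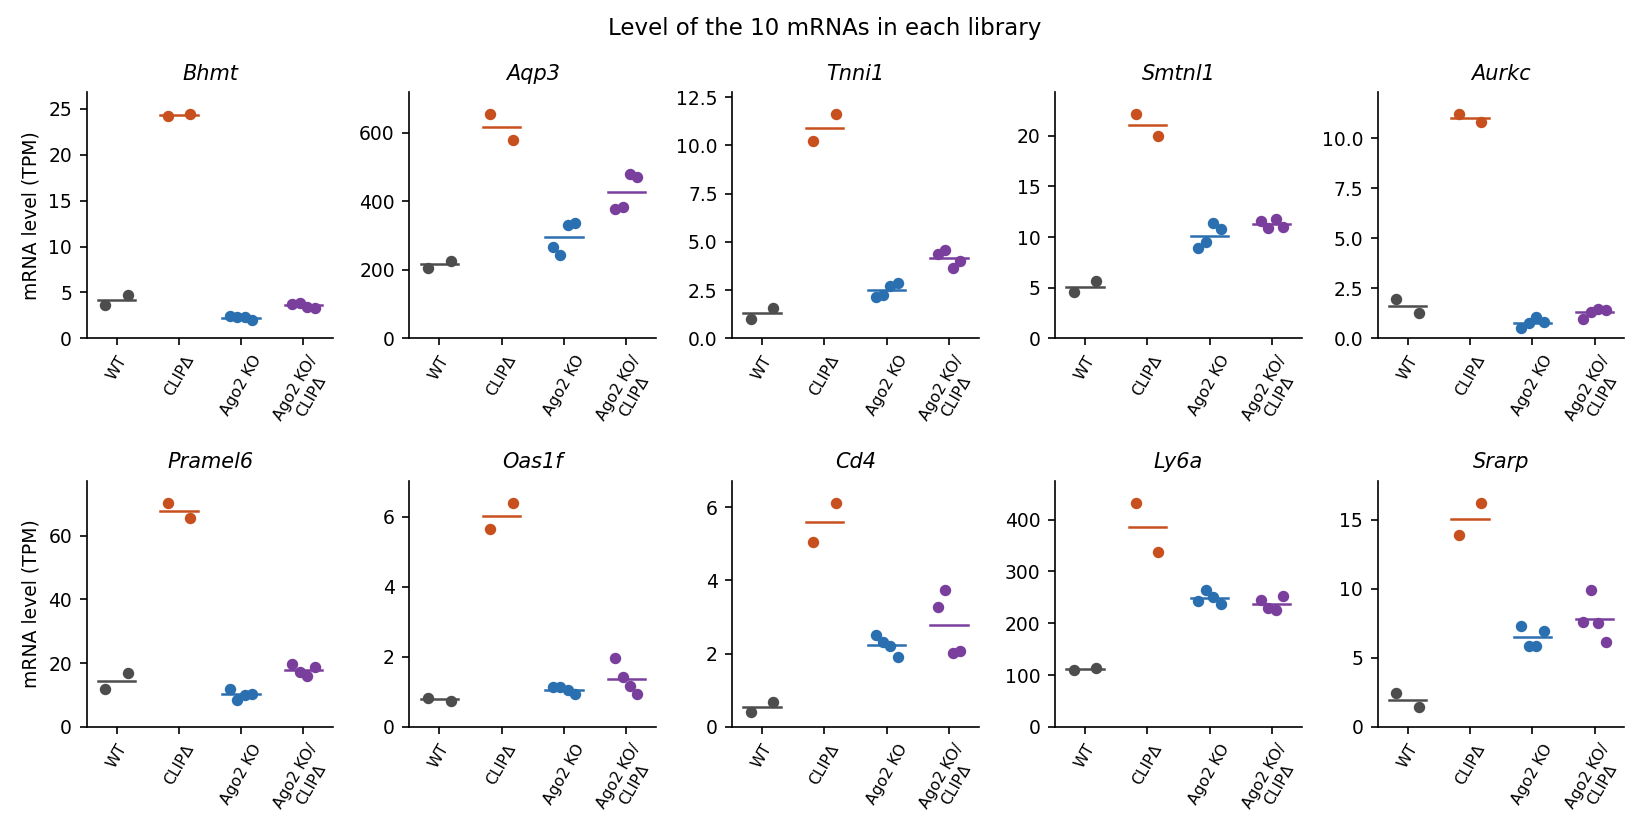
Level of each of the 10 mRNAs in TPM on the vertical axis, from 0, for the 12 libraries by genotype on the horizontal axis. Each point is 1 library and each line is the mean of a genotype. The CLIPΔ libraries are the highest in every panel, and the *Ago2* KO/CLIPΔ libraries of *Bhmt*, *Aqp3*, *Tnni1*, and *Pramel6* lie above all *Ago2* KO libraries.

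Without Ago2, the differences ran from -0.06 for *Ly6a* to 0.77 for *Pramel6*, and 3 of the 10 mRNAs were higher in *Ago2* KO/CLIPΔ than in *Ago2* KO mESCs in the test across all genes (4 libraries each, limma, adjusted p under 0.05). These were *Pramel6*, *Bhmt*, and *Tnni1*. Of all 10956 genes tested, 108 were called higher (0.986%) and 245 lower (2.24%). With the replicate number as a block, 5 of the 10 were called, adding *Aqp3* and *Aurkc*, beside 266 genes called higher (2.43%). The median difference of the 10 was 0.30, and 9 of 10 were above 0, whereas the median of all genes was -0.05 and 36.5% of all genes were above 0. All 10 passed the filter, a mean over these 8 libraries of 1 TPM or more. *Aurkc* passed only through *Ago2* KO/CLIPΔ, with a mean of 1.30 TPM there and 0.780 TPM in *Ago2* KO. Its place among the genes tested, and so its calls, depend in part on the rise that was tested. Every *Ago2* KO/CLIPΔ library was above every *Ago2* KO library for 4 of the 10, *Bhmt*, *Aqp3*, *Tnni1*, and *Pramel6*, and for 3.69% of all genes.

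The calls depend on what counts as a replicate. When the 2 libraries of each pair were averaged, leaving 2 values per genotype, limma called 1 gene of 10956, which was lower, and 519 genes at an unadjusted p under 0.05. None of the 10 was called then, and *Pramel6* had an adjusted p of 0.216. Their differences are the same in that fit, and *Bhmt*, *Tnni1*, *Pramel6*, and *Aqp3* had an unadjusted p under 0.05 in it.

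**Figure D2:**
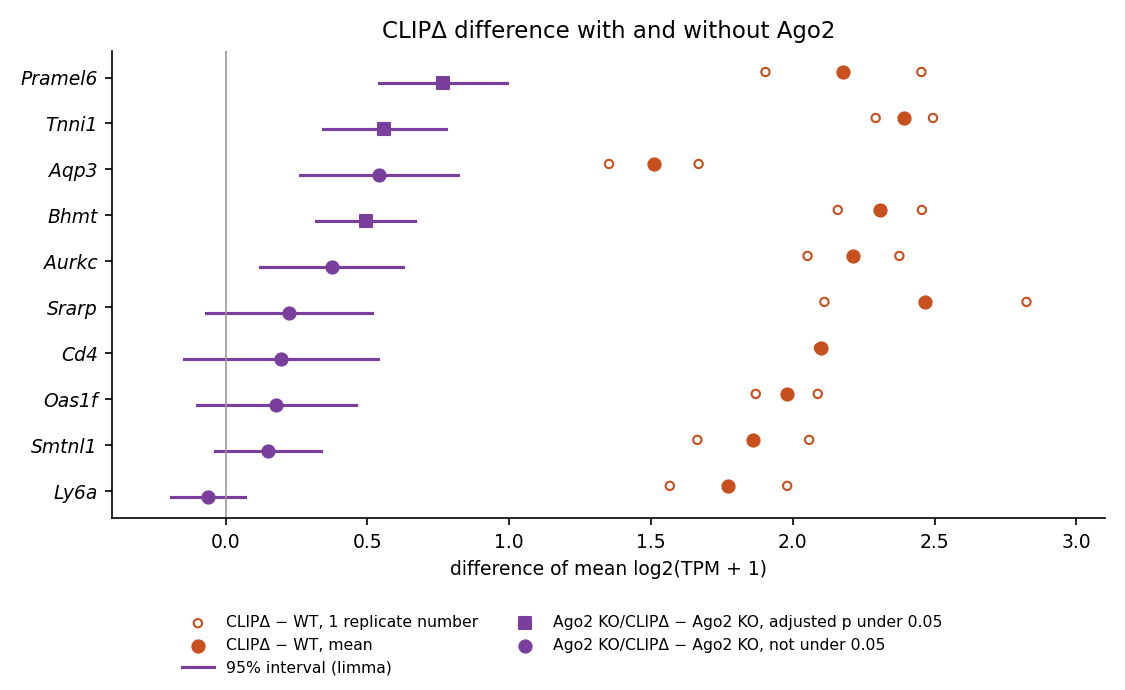
Difference of mean log2(TPM + 1) on the horizontal axis for each of the 10 mRNAs. Filled orange circles are CLIPΔ minus WT and open circles are the same difference for libraries with 1 replicate number (for *Cd4* they lie under the mean). Purple symbols are *Ago2* KO/CLIPΔ minus *Ago2* KO with the 95% interval from limma, as squares where the adjusted p was under 0.05. The purple symbols run from -0.06 (*Ly6a*) to 0.77 (*Pramel6*), and all lie to the left of the orange ones.

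Promoter sequences were read to show what lies upstream of genes that moved together. RefSeq (GRCm38.p6, the assembly of mm10) gave a promoter of 300 bases for 8 of the 10, from 250 bases before to 50 bases after the start of the gene. *Cd4* and *Ly6a* had no entry. Their median number of CpG dinucleotides was 5.5, against 7 over all 32851 promoters. It ran from 0 for *Srarp* to 21 for *Aqp3*. Short motifs were searched on both strands. AAGGTCA, the half-site read by receptors such as Esrrb, was in 1 of the 8, *Bhmt*, and in 4.72% of all promoters. TATAAA was in 1 of 8, *Aqp3*, and in 13.6% of all promoters. CCAAT was in 3 of 8, *Bhmt*, *Pramel6*, and *Aurkc*, and in 37.4% of all promoters, and GGGCGG was in 2 of 8, *Aqp3* and *Aurkc*, and in 35.7%. TTCNNNGAA, ATTTGCAT, and CACGTG, the letters read by Stat, Oct, and E-box factors, were in 0 of the 8, and in 8.30%, 1.74%, and 7.15% of all promoters. The interferon-stimulated response element was also in 0 of the 8, and in 3.44% of all promoters. The stretches around 1 motif each, AAGGTCA of *Bhmt*, TATAAA of *Aqp3*, and CCAAT of *Pramel6*, are shown because these mRNAs did not overlap between the *Ago2*-null genotypes, on the strand of the gene with the motif in capitals.
Bhmt, chr13:93637814-93637842, minus strand, motif from position -73: gaccccagatcAAGGTCAgaggcctgcta
Bhmt, chr13:93637789-93637817, minus strand, motif from position -48: gctattggacaAAGGTCAgtgtgcagacg
Aqp3, chr4:41098196-41098223, minus strand, motif from position -29: caggctgagcgTATAAAgggcgccacct
Pramel6, chr2:87506408-87506434, plus strand, motif from position -146: tgagatctcatCCAATccaccctgaca
Pramel6, chr2:87506473-87506499, plus strand, motif on the other strand from position -81: agactgcagatATTGGttgagagggtg
Positions count from RefSeq's start site. For *Bhmt* that site lies inside the gene span of GENCODE given below, and both *Bhmt* windows lie within that span and not upstream of it. *Bhmt* held 2 copies of AAGGTCA, and no motif searched was in more than 3 of the 8 promoters. The CCAAT match of *Bhmt* from position 33 and the GGGCGG match of *Aqp3* are not shown. The other CCAAT match of *Bhmt*, on the other strand from position -56, lies in lower case within the second *Bhmt* window. A match describes the letters of the window and is not a measured site.

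*Bhmt* encodes betaine-homocysteine methyltransferase, which turns homocysteine back into methionine with a methyl group from betaine and is best known from liver and kidney. It lies on chromosome 13 (mm10 chr13:93616675-93637961, minus strand). *Bhmt* was at 3.59 and 4.69 TPM in WT and at 24.2 and 24.4 TPM in CLIPΔ mESCs. It was at 2.43, 2.28, 2.31, and 2.03 TPM in *Ago2* KO and at 3.77, 3.87, 3.39, and 3.33 TPM in *Ago2* KO/CLIPΔ mESCs. The *Ago2*-null genotypes did not overlap with each other, and the *Ago2* KO/CLIPΔ libraries overlapped with WT. The difference without Ago2 was 0.49 ± 0.08 (log2 scale, SE) with an adjusted p of 0.0112 (limma), a ratio of mean TPM of 1.59 against 5.87 for CLIPΔ over WT. An annotated gene on the other strand, *Gm15622*, overlaps with *Bhmt*, and the use of strand in the counting was not stated. Of the stretches of 50 nt in the longest *Bhmt* transcript, 11.8% were also found in transcripts of 2 other genes, most often *Gm5096*.

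*Bhmt2*, the neighbor and paralog of *Bhmt* at a distance of 17.8 kb, was at 9.67 and 13.3 TPM in WT and at 20.3 and 23.9 TPM in CLIPΔ mESCs. Without Ago2 its levels ran from 9.26 to 9.49 TPM and, with the CLIP deletion added, from 10.3 to 11.1 TPM, a difference of 0.15 (adjusted p = 0.219). Of the other genes of the methionine and folate cycle, 20 of 23 were tested without Ago2 and limma called 0, with 3 at an unadjusted p under 0.05. Over all 10956 genes, 2019 (18.4%) had an unadjusted p under 0.05. The most abundant of them, *Shmt2*, a mitochondrial serine hydroxymethyltransferase, was at 631 and 621 TPM in WT and at 594 and 519.8 TPM in CLIPΔ mESCs.

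*Aqp3* encodes an aquaporin that passes water and glycerol and had the highest mean TPM of the 10 in all 4 genotypes (chr4:41092722-41098183, minus strand). It was at 205 and 227 TPM in WT and at 654 and 581 TPM in CLIPΔ mESCs. It was at 268, 244, 332, and 336 TPM in *Ago2* KO and at 376, 384, 481, and 472 TPM in *Ago2* KO/CLIPΔ mESCs. Replicates 3 and 4 were higher than replicates 1 and 2 in both genotypes, and the genotypes did not overlap. The difference was 0.54 ± 0.12 (log2 scale, SE), with an adjusted p of 0.0511 (limma) without the replicate block and 0.00220 with it. *Aqp11* was the only other aquaporin tested, and its difference was 0.06 (adjusted p = 0.779).

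*Tnni1* encodes the troponin I of slow skeletal muscle, the inhibitory subunit of the troponin complex (chr1:135779434-135810989, plus strand). It was at 0.995 and 1.57 TPM in WT and at 10.2 and 11.6 TPM in CLIPΔ mESCs. It was at 2.16, 2.22, 2.70, and 2.88 TPM in *Ago2* KO and at 4.35, 4.55, 3.64, and 3.99 TPM in *Ago2* KO/CLIPΔ mESCs. All 4 *Ago2* KO/CLIPΔ libraries were higher than the 4 *Ago2* KO libraries, and all 8 were higher than WT and lower than CLIPΔ. The difference without Ago2 was 0.56 ± 0.10 (log2 scale, SE, adjusted p = 0.0171, limma). The call was lost without *Ago2* KO replicate 1 (adjusted p = 0.0652) or *Ago2* KO replicate 2 (adjusted p = 0.0680).

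*Smtnl1* encodes smoothelin-like 1, a protein that modulates contraction in muscle (chr2:84811176-84822652, minus strand). It was at 4.55 and 5.61 TPM in WT and at 22.1 and 19.9 TPM in CLIPΔ mESCs. It was at 8.93, 9.55, 11.4, and 10.8 TPM in *Ago2* KO and at 11.6, 10.9, 11.8, and 10.998 TPM in *Ago2* KO/CLIPΔ mESCs. The *Ago2*-null genotypes overlapped, and both were above WT. Their difference was 0.15 (95% interval -0.04 to 0.34, adjusted p = 0.388, limma).

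Of 26 other listed genes of the contractile apparatus, 14 were tested without Ago2, and limma called 1 higher and 1 lower, with 5 at an unadjusted p under 0.05, 2 higher and 3 lower. *Des*, the muscle intermediate filament desmin, was between 14.6 and 17.2 TPM in *Ago2* KO and between 19.2 and 22.4 TPM in *Ago2* KO/CLIPΔ mESCs (difference 0.41, adjusted p = 0.0218). *Acta1*, skeletal muscle actin, was between 1.18 and 2.04 TPM in *Ago2* KO and between 0.324 and 0.619 TPM in *Ago2* KO/CLIPΔ mESCs, and fell by 0.84 on the log2 scale (adjusted p = 0.00756). The median difference of the 14 was -0.05, the same as over all genes. In CLIPΔ against WT, 1 of 14 was higher without overlap and 1 was lower, beside 11.5% and 19.3% of all genes.

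*Aurkc* encodes Aurora kinase C, the Aurora kinase of meiotic germ cells (chr7:6995300-7003091, plus strand). It was at 1.94 and 1.28 TPM in WT and at 11.2 and 10.8 TPM in CLIPΔ mESCs. It was at 0.489, 0.787, 1.04, and 0.803 TPM in *Ago2* KO and at 0.984, 1.32, 1.47, and 1.43 TPM in *Ago2* KO/CLIPΔ mESCs. The *Ago2*-null genotypes overlapped in 1 library of each, and *Ago2* KO/CLIPΔ overlapped with WT. The difference was 0.37 ± 0.11 (log2 scale, SE), with an adjusted p of 0.114 (limma) without the replicate block and 0.0339 with it. The level of *Aurkc* is uncertain because 63.7% of the stretches of 50 nt in its longest transcript were also found in transcripts of 10 other annotated genes, most often *Gm12463*. Among the other Aurora kinases and their partners, 9 were tested without Ago2 and limma called 0, with 0 at an unadjusted p under 0.05. *Birc5*, the survivin subunit that brings Aurora kinases to chromosomes, was the most abundant of these, at 147 and 200.01 TPM in WT and at 165 and 215 TPM in CLIPΔ mESCs. Of 20 other germline and meiosis genes, 18 were in the table and 3 were high enough to be tested without Ago2, and limma called 0 of these, with 0 at an unadjusted p under 0.05.

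*Pramel6* encodes a leucine-rich repeat protein of the PRAME family that is made in pluripotent cells of the early embryo (chr2:87506565-87510872, plus strand). It was at 12.02 and 16.8 TPM in WT and at 70.3 and 65.4 TPM in CLIPΔ mESCs. It was at 11.8, 8.53, 10.01, and 10.3 TPM in *Ago2* KO and at 19.7, 17.3, 16.1, and 18.7 TPM in *Ago2* KO/CLIPΔ mESCs. The *Ago2*-null genotypes were fully apart. The difference of 0.77 ± 0.10 (log2 scale, SE, adjusted p = 0.00555, limma) was the largest of the 10 without Ago2, and its ratio of mean TPM was 1.77 against 4.72 for CLIPΔ over WT.

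*Pramel7*, a paralog 9.47 kb from *Pramel6*, was at 9.43 and 9.45 TPM in WT and at 28.3 and 25.4 TPM in CLIPΔ mESCs. Without Ago2 it was between 2.68 and 6.69 TPM in *Ago2* KO and between 4.38 and 4.99 TPM in *Ago2* KO/CLIPΔ mESCs, a difference of 0.12 (adjusted p = 0.780). Of the 4 other PRAME-family genes tested without Ago2, limma called 0 higher and 1 lower, with 3 at an unadjusted p under 0.05, 1 higher and 2 lower. The gene called was *Pramef8*, which fell by 0.56 on the log2 scale (adjusted p = 0.0105). Of 22 genes that mark 2-cell-like cells, 1 was high enough to be tested without Ago2, *Eif1a*, with a difference of -0.11 (adjusted p = 0.622).

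*Oas1f* belongs to the oligoadenylate synthetase family, enzymes induced by interferon that sense double-stranded RNA (chr5:120847367-120857986, plus strand). It was at 0.820 and 0.741 TPM in WT and at 5.65 and 6.40 TPM in CLIPΔ mESCs. It was at 1.13, 1.14, 1.05, and 0.938 TPM in *Ago2* KO and at 1.96, 1.42, 1.16, and 0.927 TPM in *Ago2* KO/CLIPΔ mESCs. The last of these was below all *Ago2* KO libraries and the other 3 were above them, and the difference was 0.18 (95% interval -0.10 to 0.46, adjusted p = 0.495, limma). The neighbors *Oas1b* and *Oas1h* were at or below 2.21 TPM in all 12 libraries. Of 30 other genes of the family and of the interferon response, 14 were tested without Ago2 and limma called 0, with 3 at an unadjusted p under 0.05. *Ifitm3*, an interferon-induced membrane protein and the most abundant of them, was at 565 and 635 TPM in WT and at 843 and 921 TPM in CLIPΔ mESCs. With Ago2 present, 2 of 16 genes of this list were above WT without overlap in CLIPΔ mESCs and 3 were below. The shares of all genes were 11.5% and 19.3%. The median difference of the 16 between CLIPΔ and WT was -0.03. *Oas1a* was at 13.0 and 23.8 TPM in WT and at 22.3 and 47.1 TPM in CLIPΔ mESCs. *Oas1g* was at 4.53 and 10.4 TPM and at 8.76 and 17.4 TPM. Both overlapped with WT, although each was higher in CLIPΔ for either replicate number. Pairing of these libraries by replicate number was not tested. *Oas1d* and *Oas1h* had differences of 0.40 and 0.15, and *Oas1c*, *Oas2*, and *Oasl1* of -0.04, -0.21, and -0.23.

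*Cd4* encodes the co-receptor of helper T cells (chr6:124864692-124888221, minus strand). It was at 0.410 and 0.669 TPM in WT and at 5.06 and 6.12 TPM in CLIPΔ mESCs, the largest ratio of mean TPM of the 10, at 10.4. It was at 2.52, 2.32, 2.20, and 1.91 TPM in *Ago2* KO and at 3.28, 3.73, 2.02, and 2.07 TPM in *Ago2* KO/CLIPΔ mESCs. Replicates 1 and 2 of *Ago2* KO/CLIPΔ were above all *Ago2* KO libraries, and replicates 3 and 4 lay within them. The difference was 0.20 (95% interval -0.15 to 0.54, adjusted p = 0.547, limma). Of 13 other T cell genes, 7 were in the table and 6 were tested without Ago2, and limma called 0, with 1 at an unadjusted p under 0.05. With Ago2 present, 3 of these 7 were above WT without overlap in CLIPΔ mESCs, beside 11.5% of all genes, and 0 were below, beside 19.3%. *Cd3e*, a chain of the T cell receptor complex, was at 1.58 and 2.31 TPM in WT and at 6.67 and 5.01 TPM in CLIPΔ mESCs. *Cd3d*, another chain of that complex, was at 0.177 and 0.187 TPM in WT and at 1.95 and 3.08 TPM in CLIPΔ mESCs. *Cd3d* passed the filter on these libraries only through CLIPΔ, so its place in that count follows in part from the filter. *Cd2*, an adhesion receptor of T cells, was at 0.853 and 1.55 TPM in WT and at 4.43 and 5.61 TPM in CLIPΔ mESCs. *Zap70*, *Lat*, and *Lag3* had differences between CLIPΔ and WT of 0.06, -0.06, and -0.17 on the log2 scale, and the median of the 7 was 0.06. *Cd3d*, *Cd2*, *Zap70*, and *Lat* were named after their values were seen. *Lck*, a kinase that binds Cd4 and the most abundant of the list, was at 4.14 and 8.50 TPM in WT and at 3.16 and 6.52 TPM in CLIPΔ mESCs.

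*Ly6a* encodes the surface protein Sca-1, a marker of blood stem cells that interferon can induce (chr15:74994877-74998031, minus strand). It lies 1.81 Mb from *Ago2* on the same chromosome. It was at 109 and 113 TPM in WT and at 432 and 338 TPM in CLIPΔ mESCs. It was at 242, 264, 251, and 237 TPM in *Ago2* KO and at 245, 229.7, 225, and 253 TPM in *Ago2* KO/CLIPΔ mESCs. The *Ago2*-null genotypes overlapped, at a level between those of WT and CLIPΔ. The difference was -0.06 (95% interval -0.19 to 0.07, adjusted p = 0.629, limma). *Ly6c1*, a neighbor and paralog with a low level, was at 0.129 and 0.102 TPM in WT and at 1.70 and 1.27 TPM in CLIPΔ mESCs. *Ly6e*, another family member next to *Ly6a*, was at 207 and 250.4 TPM in WT and at 289.8 and 324 TPM in CLIPΔ mESCs.

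Of 9 markers of blood cells and lymphocytes, 4 were in the table, *Cd3e* among them. Their summed level was 2.74 and 4.40 TPM in WT, 6.35 and 7.45 TPM in CLIPΔ, 4.39 to 5.20 TPM in *Ago2* KO, and 4.61 to 5.62 TPM in *Ago2* KO/CLIPΔ mESCs. Most of the sum in CLIPΔ was *Cd3e*, whose difference between CLIPΔ and WT was 1.22 on the log2 scale. The other markers, all at low levels, did not rise, with differences of -0.04 for *Itgam*, -0.21 for *Gata1*, and -0.25 for *Tal1*. *Ptprc* and *Cd8a*, which mark leukocytes, were on the lists but not among the genes in the RNA-seq table. That table holds no value of 0, so the levels of these markers are not known. The part of other cells in the levels of *Cd4* and *Ly6a* was not tested, and in these bulk samples fewer cells of a type and less RNA per cell cannot be told apart.

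*Srarp* encodes a small protein that binds and modulates steroid receptors (chr4:141432672-141436105, minus strand). It was at 2.45 and 1.43 TPM in WT and at 13.9 and 16.2 TPM in CLIPΔ mESCs. It was at 7.29, 5.84, 5.85, and 6.91 TPM in *Ago2* KO and at 7.62, 9.94, 7.51, and 6.13 TPM in *Ago2* KO/CLIPΔ mESCs. The *Ago2*-null genotypes overlapped and were both above WT, and their difference was 0.22 (95% interval -0.07 to 0.52, adjusted p = 0.403, limma). Of 8 steroid and related receptors, 3 were tested without Ago2, and limma called 0, with 1 at an unadjusted p under 0.05. *Esrrb*, an orphan receptor of the pluripotency network and the most abundant of the list, was at 78.1 and 63.7 TPM in WT and at 72.0 and 56.4 TPM in CLIPΔ mESCs.

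Within the pairs of replicate numbers, 8 of the 10 mRNAs had a difference above 0 between *Ago2* KO/CLIPΔ and *Ago2* KO mESCs in both, all but *Cd4* and *Ly6a*. For *Pramel6* the difference was 0.82 in replicates 1 and 2 and 0.72 in replicates 3 and 4. For *Aqp3* it was 0.57 and 0.51, for *Bhmt* 0.52 and 0.46, and for *Aurkc* 0.39 and 0.35. *Tnni1* had 0.77 and 0.34. *Cd4* had 0.40 in replicates 1 and 2 and -0.0046 in replicates 3 and 4, and *Srarp*, *Oas1f*, and *Smtnl1* had 0.37, 0.32, and 0.26 in replicates 1 and 2 and 0.08, 0.03, and 0.04 in replicates 3 and 4. With 2 libraries per genotype, limma tested 9 of the 10 in replicates 1 and 2, where *Aurkc* missed the filter, and called 6 higher, *Bhmt*, *Tnni1*, *Pramel6*, *Cd4*, *Smtnl1*, and *Aqp3*, beside 5.02% of all genes. It called 5 in replicates 3 and 4, *Bhmt*, *Tnni1*, *Aurkc*, *Pramel6*, and *Aqp3*, beside 23% of all genes. With the pair as a block over all 8 libraries it called the same 5 as with the replicate number, beside 5.14% of all genes. *Bhmt*, *Tnni1*, *Pramel6*, and *Aqp3* were called in both pairs. For each of them every *Ago2* KO/CLIPΔ library was above every *Ago2* KO library, so a difference above 0 in both pairs followed from that. The pairs are parts of the same 8 libraries and were chosen after seeing the data, so these calls are not separate evidence. The shares of all genes called, or above 0, in both pairs were not computed.

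**Figure D3:**
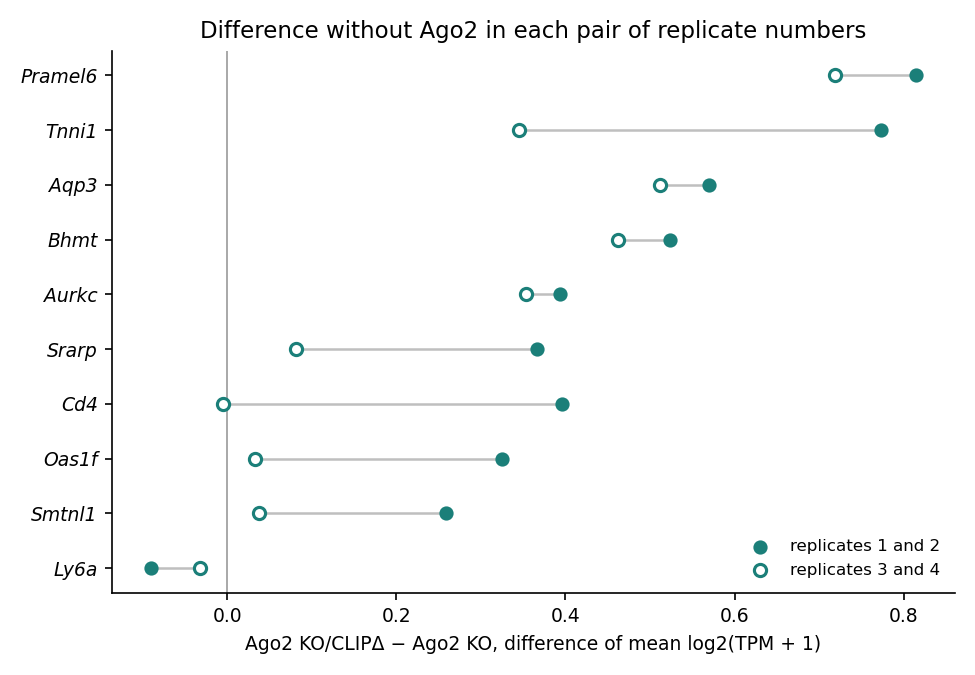
Difference of mean log2(TPM + 1) between *Ago2* KO/CLIPΔ and *Ago2* KO mESCs on the horizontal axis for each of the 10 mRNAs. Filled points are replicates 1 and 2 and open points are replicates 3 and 4, with 2 libraries of each genotype behind each point. The points of *Pramel6*, *Aqp3*, *Bhmt*, and *Aurkc* lie close together, and those of *Tnni1* and *Cd4* are the farthest apart, at 0.77 and 0.34 and at 0.40 and -0.0046.

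In *Ago2* KO against WT mESCs, the 10 mRNAs had no common direction. Since the WT and CLIPΔ libraries had served to choose the genes, the comparisons with them carry no test. *Bhmt*, *Aurkc*, and *Pramel6* were lower in all *Ago2* KO libraries than in both WT libraries, with differences of -0.65, -0.55, and -0.45. The other 7 were higher without overlap, from 0.21 for *Oas1f* to 1.36 for *Srarp*, with *Ly6a* at 1.15 and *Cd4* at 1.07. Over all genes 18.3% were higher and 50.1% lower without overlap, and the median difference was -0.26. After each library was centered on its median, *Bhmt*, *Aurkc*, and *Pramel6* were at -0.30, -0.20, and -0.11. In *Ago2* KO/CLIPΔ mESCs, *Srarp*, *Cd4*, *Ly6a*, *Smtnl1*, *Tnni1*, *Aqp3*, and *Oas1f* were above WT without overlap, and *Bhmt*, *Aurkc*, and *Pramel6* overlapped with WT. Over all genes 14.8% were above WT and 50% below it without overlap in that comparison.

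All 10 were lower in *Ago2* KO/CLIPΔ than in CLIPΔ mESCs without overlap, as were 48.5% of all genes, whose median difference was -0.25. The differences were -2.46 for *Bhmt*, -2.39 for *Aurkc*, -1.87 for *Pramel6*, -1.59 for *Oas1f*, and -1.22 for *Tnni1*. They were -0.88 for *Srarp*, -0.84 for *Smtnl1*, -0.83 for *Cd4*, -0.68 for *Ly6a*, and -0.53 for *Aqp3*. The order of genotypes was thus CLIPΔ, then WT and *Ago2* KO/CLIPΔ, which overlapped, then *Ago2* KO for *Bhmt* and *Pramel6*. It was the same for *Aurkc*, except that the *Ago2* KO libraries also overlapped with those of *Ago2* KO/CLIPΔ. For the other 7 it was CLIPΔ, then the *Ago2*-null genotypes, then WT. Only *Tnni1* and *Aqp3* of these 7 had *Ago2*-null genotypes that did not overlap. Whether the CLIPΔ difference itself changed with *Ago2* was not tested, because the WT and CLIPΔ libraries had fixed it in part.

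Over all 12 libraries the 10 mRNAs varied together to different degrees. The Pearson correlation of log2(TPM + 1) over the 45 pairs of genes ran from 0.472 (*Bhmt* with *Ly6a*) to 0.977 (*Bhmt* with *Aurkc*), with a median of 0.812. These are descriptions over 12 libraries that share genotypes, and the 2 high CLIPΔ libraries contribute to all of them. Among 11286 other genes, the most alike pattern was that of *Csf3r* for *Bhmt* (0.985), with *Bhmt2* also at 0.979. It was *Fgfrl1* for *Aurkc* (0.986), *C130074G19Rik* for *Pramel6* (0.982), *Ffar2* for *Oas1f* (0.976), *Dglucy* for *Cd4* (0.960), *Cd3e* for *Tnni1* (0.957), and *Sin3b* for *Aqp3* (0.957). *Srarp* was most like *Cd4* (0.955), and *Ly6a* and *Smtnl1* were most like each other (0.946).

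Some neighbors of the 10 genes were also higher in CLIPΔ mESCs. Of the 20 nearest measured genes, 1 on each side, 16 passed the filter and 6 were above WT in both CLIPΔ libraries without overlap, beside 11.5% of all genes. *Ube2l6*, a ubiquitin-conjugating enzyme gene 0.841 kb from *Smtnl1*, was at 3.51 and 4.88 TPM in WT and at 13.1 and 17.4 TPM in CLIPΔ mESCs. *Lad1*, which encodes the basement membrane protein ladinin and lies 7.61 kb from *Tnni1*, was at 9.45 and 9.14 TPM in WT and at 24.8 and 17.2 TPM in CLIPΔ mESCs. *Pramel7*, *Bhmt2*, *Ly6e*, and *Zfp954* were the other 4, and none of the 16 was lower without overlap. Without Ago2, 15 neighbors were tested and limma called 0, with 2 at an unadjusted p under 0.05, both higher. These neighbors were measured in the libraries that chose the 10 genes, so their rise in CLIPΔ is a description.

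**Figure D4:**
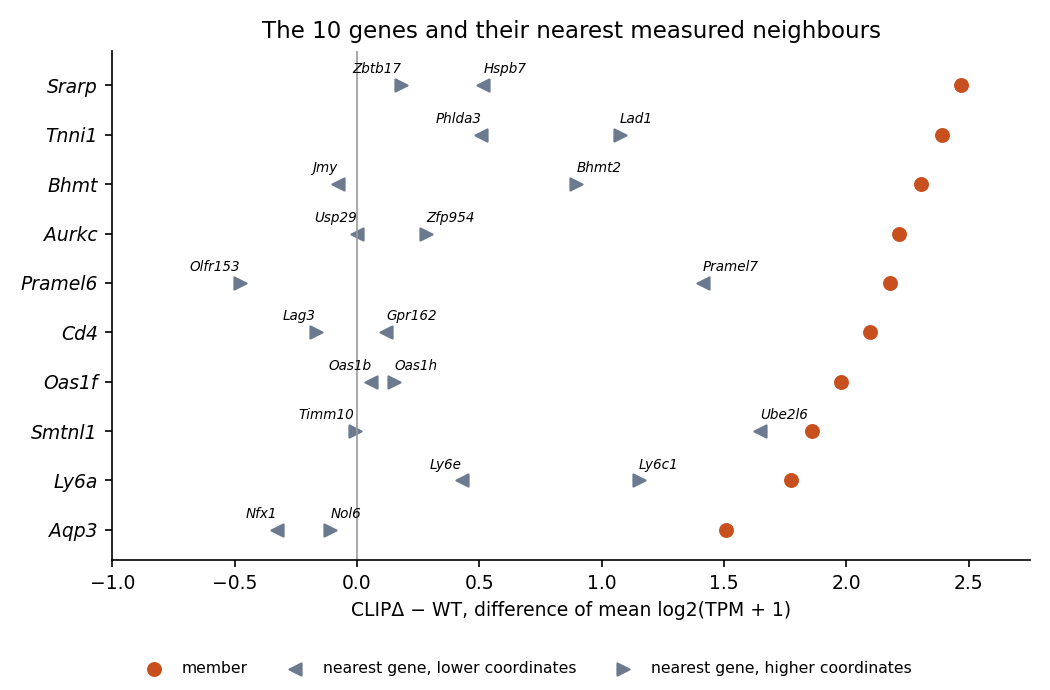
Difference of mean log2(TPM + 1) between CLIPΔ and WT mESCs on the horizontal axis for the 10 genes (orange) and the nearest measured gene on each side (gray triangles, pointing to the side). *Ube2l6*, *Pramel7*, *Ly6c1*, *Lad1*, and *Bhmt2* lie between 0.90 and 1.65, and the neighbors of *Aqp3*, *Cd4*, and *Oas1f* lie between -0.32 and 0.15.

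None of the 10 mRNAs had a Trim71 CLIP-seq peak. The deposited list held 498 peaks, and 316 of the 15034 genes in the RNA-seq table (2.102%) had one.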

How the data were processed

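RNA-seq was analysed in 12 libraries from 4 genotypes of mESCs. For each library the authors aligned reads with HISAT2 2.1.0 (mm10), used HTSeq to count them over a gene's longest transcript, and scaled the result to the deposited TPM values. The table has 0 values at 0. Strand use was not given in the sources used here. For the CLIP-seq peaks the authors deposited read counts in 1 list common to both replicates, used here only for whether a gene had a peak. The small-RNA values were not used.

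Levels were compared as log2(TPM + 1). *Ago2* KO/CLIPΔ was tested against *Ago2* KO (4 libraries each) for 10956 genes with limma 3.58.1 in R 4.3.3 (lmFit, then eBayes with a trend), with a threshold of 0.05 after Benjamini-Hochberg adjustment over all genes. The fit was first tested on simulated data. The study's edgeR test needs counts, which TPM values are not. All other contrasts are differences of means with no test. "Without overlap" means that every library of a genotype lay on 1 side of every library of the other. The exact two-sided permutation test over 8 libraries gave *Bhmt*, *Tnni1*, *Pramel6*, and *Aqp3* a p of 0.0286 each, the smallest that 70 splits allow.

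The replicate numbers come from the labels. Deviations from the group means of same-numbered *Ago2*-null libraries correlated across genes at 0.434, 0.324, 0.422, and 0.365. Those of differently numbered libraries in the same pair correlated as well, at 0.393, 0.342, 0.351, and 0.473. Between libraries of different pairs the correlation was -0.447 to -0.28. These values match libraries by pair and not by replicate number, so the replicate block was fitted only as an alternative.

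The 10 genes and all lists were chosen with earlier results of these data known. Named besides them are *Ago2*, list genes past the test or most abundant in a list, the nearest gene on each side, the gene with the most similar pattern, and the genes next to them by rank. The likeness of *Bhmt2* to *Bhmt* was named after its value was seen, as were *Cd3d*, *Cd2*, *Zap70*, and *Lat*. The same holds for *Oas1a*, *Oas1c*, *Oas1d*, *Oas1g*, *Oas2*, *Oasl1*, and the pluripotency markers below WT. Alternatives covered the pseudocount, the filter, centering, the model, the block, and each library left out. The added alternatives on replicate pairs were chosen after seeing the data. Gene positions are from GENCODE (mm10), promoters from RefSeq. Python 3.11.15 with numpy 2.4.6, pandas 2.3.3, and matplotlib 3.10.9 made the remaining values and the figures.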

Additional observations from a re-analysis of the deposited data

Results flagged for a closer look

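The difference between *Ago2* KO/CLIPΔ and *Ago2* KO mESCs was not the same in replicates 1 and 2 as in replicates 3 and 4 for 2 of the 10 mRNAs, by limma's test of the interaction of genotype and pair. For *Tnni1* it was 0.77 in the first pair and 0.34 in the second, a change of -0.43 on the log2 scale (adjusted p = 0.00763, limma). For *Cd4* it was 0.40 and -0.0046, a change of -0.40 (adjusted p = 0.0205, limma). Of all 10956 genes tested, 4676 (42.7%) passed this test. The pairs were defined after the correlations between libraries were seen. In the 20 groups of 4 libraries that the 10 mRNAs give, 0 libraries stood apart by Dixon's test.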

How the results depend on the processing

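*Bhmt* and *Pramel6* were called under every alternative that kept single libraries, and lost the call only when each pair of libraries was averaged. The count of genes called without Ago2 was 353 (108 higher, 245 lower). It was 804 (266 higher, 538 lower) with the replicate block, with 5 of the 10 mRNAs called, and the block changed no call of the 10 other than those of *Aurkc* and *Aqp3*. It was 100 (31 higher, 69 lower) with all 12 libraries in 1 model, and 326 (163 higher, 163 lower) with median centering, under which *Aqp3* was called (adjusted p = 0.0410), as it was with a filter of 1 TPM in every library of a genotype (adjusted p = 0.0480). With the pair of replicate numbers as a block it was 1824 (563 higher, 1261 lower), with 5 of the 10 called. It was 4157 (546 higher, 3611 lower) in replicates 1 and 2 only, with 6 of the 10, and 4238 (2537 higher, 1701 lower) in replicates 3 and 4 only, with 5 of the 10, where *Cd4* turned to -0.0046. With pairs averaged it was 1 (0 higher, 1 lower), with 0 of the 10. Leaving out 1 library at a time gave 130 to 259 genes called, 41 to 88 higher and 85 to 171 lower, and 2 or 3 of the 10. The count was 130, 136, 199, and 171 without *Ago2* KO replicates 1, 2, 3, and 4, and 259, 218, 166, and 188 without *Ago2* KO/CLIPΔ replicates 1, 2, 3, and 4. These fits test 7 libraries in place of 8, and *Aurkc* missed the filter without *Ago2* KO/CLIPΔ replicate 3 or 4. In the fits with 1 library left out, the differences of 5 mRNAs that were not called moved by over 1.5 times. *Oas1f* fell from 0.18 to 0.07 without *Ago2* KO/CLIPΔ replicate 1, *Cd4* from 0.20 to 0.08 and *Srarp* from 0.22 to 0.11 without *Ago2* KO/CLIPΔ replicate 2, and *Smtnl1* from 0.15 to 0.09 without *Ago2* KO replicate 1. *Ly6a* ran from -0.09 to -0.03. The cause of the other changes was not tested.

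The median difference of the 10 between CLIPΔ and WT was 2.14. It was 2.63 with a pseudocount of 0.1, 2.39 with 0.5, 2.19 with median centering, and 1.99 to 2.16 with 1 library left out. That of *Ago2* KO against WT was 0.53, 0.68 with a pseudocount of 0.1, 0.87 with median centering, and 0.40 to 0.65 with 1 library left out. That of *Ago2* KO/CLIPΔ against CLIPΔ was -1.05, -1.21 with a pseudocount of 0.1, and -0.72 with median centering. TPM values keep no depth, so the counting error of mRNAs near 1 TPM, such as *Oas1f* and *Aurkc*, is unknown.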

Other observations

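The genes that ranked with the 10 mRNAs in CLIPΔ against WT mESCs behaved in several ways without Ago2. The 40 largest differences include 30 other genes, of which 17 were high enough to be tested between *Ago2* KO/CLIPΔ and *Ago2* KO mESCs, and limma called 5 higher, beside 0.986% of all genes. Their median difference was 0.24, beside 0.30 for the 10. *Dppa3*, a maternal-effect gene of germ cells and naive pluripotent cells with the largest difference, was at 28.3 and 18.8 TPM in WT and at 269 and 117 TPM in CLIPΔ mESCs. It was between 1.28 and 3.39 TPM in *Ago2* KO and between 1.81 and 2.38 TPM in *Ago2* KO/CLIPΔ mESCs, a difference of -0.05 (adjusted p = 0.929, limma). Of the 13 pluripotency markers, *Dppa3* was the only 1 above WT without overlap in CLIPΔ mESCs. The 5 below were *Klf4*, *Klf5*, *Zfp42*, *Lin28a*, and *Trim71*. The shares of all genes were 11.5% and 19.3%. The median difference of the 13 between CLIPΔ and WT was -0.14. At the protein level, the paper reported less Trim71 and Lin28a, both let-7 targets, in CLIPΔ mESCs, and similar Nanog, Oct4, and Sox2.

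Of the 24 markers of other cell types that were tested, from 7 lists, limma called 1 higher, *Zic2*, and 3 lower, *Gata3*, *Krt18*, and *Sox17*, in *Ago2* KO/CLIPΔ than in *Ago2* KO mESCs, beside 0.986% and 2.24% of all genes. *Krt18*, a keratin of simple epithelia, was between 66.6 and 100.4 TPM in *Ago2* KO and between 30.8 and 42.1 TPM in *Ago2* KO/CLIPΔ mESCs. *Zic2*, a transcription factor of the primed epiblast, was between 19.4 and 27.5 TPM and between 30.7 and 36.7 TPM. Of the 13 pluripotency markers tested limma called 0, with 3 at an unadjusted p under 0.05, all lower, beside 18.4% of all genes at such a p.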
